A study of Mus musculus with 11 samples.

Results

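The kidneys compared here differ in the gene Col4a3: 8 libraries from Col4a3-/- mice (KO) were set against 3 from Col4a3+/- mice (HET), which makes up all 11 libraries of the series. Members were taken by their titles. The heterozygous group carries 1 mutant copy and had been given PBS (HET PBS, n = 3). Among the knockouts, 4 had been given PBS (KO PBS, n = 4) and 4 antimiR-21, which blocks miR-21, a microRNA (n = 4). All were 129X1/SvJ mice whose whole kidneys were taken at 5.5 weeks of age, and no group is wild type. The labels do not name the mutant allele, the dose, the schedule or the sex, and they do not say whether replicates came from separate litters, so the p-values measure the spread between these libraries. The difference asked about is the one that both knockout groups share against the heterozygotes.

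The protein encoded by Col4a3 is a chain of type IV collagen. It assembles with the chains encoded by Col4a4 and Col4a5 into the network of the mature glomerular basement membrane, and loss of any of the 3 chains causes Alport syndrome. In this disease the filter leaks protein and blood cells, and injury then spreads to tubules and interstitium, with inflammation, fibrosis and loss of tubular transport. Podocytes, the epithelial cells that cover the filter, make this network.

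Libraries held 22.4 to 49.7 M (1e6) deposited counts, and 17.9 to 39.7 M once loci with identical counts had been joined. Levels below are CPM, the counts of a locus per 1e6 counts of its library, scaled by library composition, and a difference is the log2 level of KO minus HET with its standard error (SE). The fit gave each of the 3 groups a mean and averaged the knockout groups with equal weight. It carried a term for whether a library held reads of the Y-linked gene Ddx3y, because the share that did was 2 of 3 in HET, 2 of 4 in KO PBS and 1 of 4 in KO antimiR-21, and the first principal component, 47.0% of the variance, separated libraries along that line. The second component, 13.1%, went with an index of clock genes, which was between -2.76 and -2.51 in all 4 KO PBS libraries, between -5.02 and -3.15 in KO antimiR-21 and between -5.01 and -2.74 in HET. In this whole-kidney RNA, fewer cells of a type and less RNA per cell cannot be told apart.

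The locus of the mutated gene could not check the labels. Reads of Col4a3 and its neighbour Col4a4, which lie head to head on chromosome 1 at 82586921 to 82722059 and 82448423 to 82586849 (GRCm38), had identical counts and form the joint locus Col4a3/Col4a4. Its level was 870, 1053 and 1271 CPM in HET, 743, 607, 953 and 997 CPM in KO PBS, and 515, 569, 809 and 665 CPM in KO antimiR-21. The ranges overlapped, with 2 KO PBS libraries above the lowest HET library. The difference of -0.44 (SE 0.14) did not pass (edgeR quasi-likelihood test, Benjamini-Hochberg adjusted p = 0.465). Col4a5, the X-linked partner chain, ran from 190 to 204 CPM in HET and from 162 to 215 CPM in KO, a difference of -0.02 (adjusted p = 0.994).

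Across the transcriptome, 4 named genes were higher in the knockouts beyond the test's threshold and none was lower. They were Fcrls, a scavenger-receptor-like protein of macrophages and microglia, Npy6r, a receptor of the neuropeptide Y family, Inhbb, which encodes the beta B subunit of activin B and inhibin B, and Cdkn1c, a cyclin-dependent kinase inhibitor found in podocytes. Of 14380 loci tested, these 4 higher calls are 0.0278%, and the 0 lower calls are 0% (edgeR at an adjusted threshold of 0.05). Before adjustment, 648 loci were higher (4.51%) and 410 lower (2.85%) at p under 0.05. In 177 loci (1.23%) all 8 KO libraries lay above all 3 HET libraries, and in 53 (0.369%) all 8 lay below. By size, 72 of those 177 loci differed by more than 1 on the log2 scale and 3 of those 53 by less than -1. A locus near 0 in HET can pass the filter on low counts through the more numerous KO libraries alone. Ccl11, with a mean of 0.053 CPM in HET and 0.60 CPM in KO, is among the 72. So is the called gene Fcrls, with a mean of 0.33 CPM in HET and 3.47 CPM in KO. The counts of higher and lower loci are therefore not like for like. The median difference of all loci was -0.01, with 6551 positive (45.6%) and 7829 negative. The count of calls depends on the tool and on single libraries: DESeq2 called 92 loci higher (0.64%) and 17 lower (0.118%). With edgeR, leaving out HET replicate 1 or 3 left 0 calls, leaving out HET replicate 2 left 1, leaving out KO PBS replicate 1 gave 11, leaving out KO PBS replicate 2 gave 7, and leaving out KO PBS replicate 3 or 4 or KO antimiR-21 replicate 1 left 2.

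**Figure D1:**
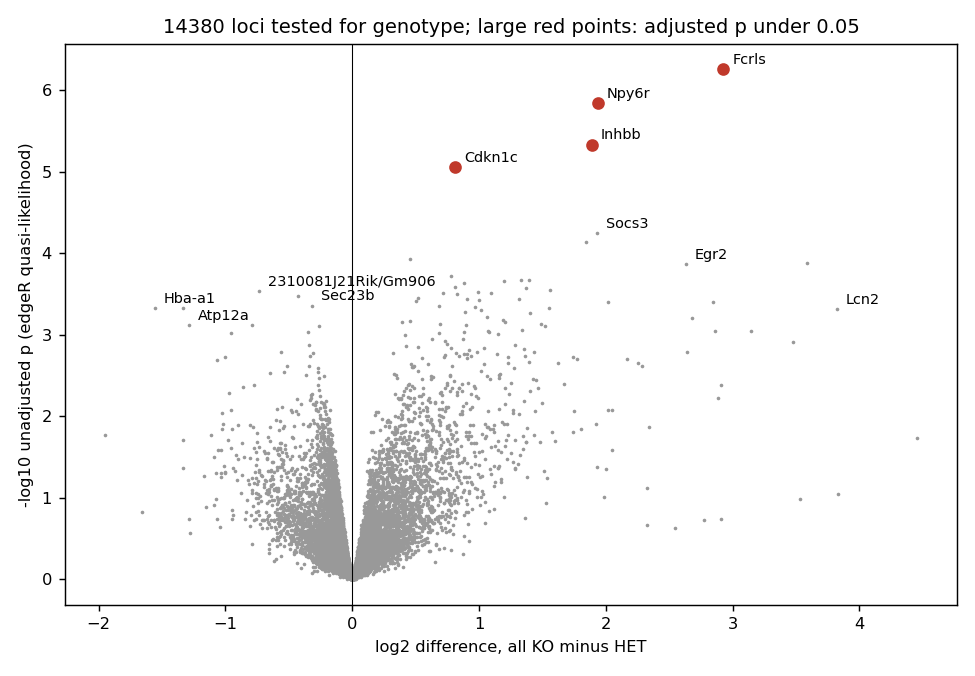
Each of the 14380 loci tested is a point, with the log2 difference of all KO minus HET on the horizontal axis and -log10 of the unadjusted p on the vertical axis. The 4 large red points passed the adjusted threshold of 0.05, all of them to the right of 0, and named grey points did not pass.

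The promoters of 2 of the 4 genes are shown because their transcripts carry the genotype difference. They are RefSeq windows of GRCm38.p6, made as 250 bases before to 50 after a transcription start, written 5′ to 3′ along the gene's strand. By the GENCODE coordinates given below, the Inhbb window has those bounds, but the Fcrls window holds 36 bases before the gene's start and 264 from it on, so the sources place that start differently. Capitals mark matches, on either strand, to the motifs searched. The AP-1 motif was searched as TGANTCA. The GC box, which Sp-family factors bind, was searched as GGGCGG. The ETS core, which factors such as PU.1 bind, was searched as GAGGAA. The TATA box, where transcription of some genes is set up, was searched as TATAAA. None of the matches overlap.
Inhbb, chr1:119422199-119422498, minus strand: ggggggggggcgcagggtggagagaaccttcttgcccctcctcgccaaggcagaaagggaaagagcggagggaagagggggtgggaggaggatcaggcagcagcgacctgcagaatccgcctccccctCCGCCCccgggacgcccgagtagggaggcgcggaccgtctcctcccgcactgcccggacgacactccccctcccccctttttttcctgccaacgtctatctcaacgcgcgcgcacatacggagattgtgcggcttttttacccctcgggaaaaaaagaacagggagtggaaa
Fcrls, chr3:87263475-87263774, minus strand: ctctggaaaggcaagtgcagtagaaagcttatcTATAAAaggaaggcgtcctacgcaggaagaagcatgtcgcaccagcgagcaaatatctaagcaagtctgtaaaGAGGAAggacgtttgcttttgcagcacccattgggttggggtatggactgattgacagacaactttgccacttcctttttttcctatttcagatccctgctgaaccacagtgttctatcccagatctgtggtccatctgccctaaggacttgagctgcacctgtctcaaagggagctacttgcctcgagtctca
The Inhbb window holds 1 GC box and is 64.3% G and C, and the Fcrls window holds 1 ETS core and 1 TATA box and is 48% G and C. Among all 32851 windows of the table, 35.7% hold a GC box, 28.3% an ETS core, 13.6% a TATA box and 7.81% an AP-1 motif, and the median window is 52.7% G and C. In the Fcrls window the TATA match lies across the GENCODE start and the ETS core after it. Both lie before the start from which the window was made, so their place relative to the start is not settled. A match describes letters in this window and does not show that a factor binds there.

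Fcrls (chromosome 3, 87250758 to 87263738) was close to silent in the heterozygotes. Its level was 0.343, 0.384 and 0.267 CPM in HET, from 8.5, 13.5 and 6.5 counts. In KO PBS it was 3.30, 2.10, 1.76 and 1.01 CPM, and in KO antimiR-21 it was 5.14, 6.41, 4.81 and 3.21 CPM. All 8 KO libraries lay above all 3 HET libraries. A locus this low in HET can enter the test through the KO libraries alone, where Fcrls was high. The difference was 2.93 (SE 0.31), or 7.60-fold (edgeR, adjusted p = 0.00797). By group it was 2.37 (SE 0.33) in KO PBS and 3.48 (SE 0.34) in KO antimiR-21, each against the same HET libraries. Between the knockout groups the level was higher by 1.10 (SE 0.24) under antimiR-21, which did not pass (adjusted p = 0.149, unadjusted p = 0.00063).

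Npy6r (chromosome 18, 44270127 to 44277700) was at similar levels in both knockout groups. HET libraries had 1.12, 1.43 and 1.11 CPM. KO PBS libraries had 4.41, 3.41, 4.85 and 6.13 CPM, and KO antimiR-21 libraries 3.94, 3.87, 5.55 and 3.96 CPM. No KO library came near the HET range. The difference was 1.94 (SE 0.23), or 3.83-fold (edgeR, adjusted p = 0.0103), and it was 1.96 in KO PBS and 1.92 in KO antimiR-21. The knockout groups differed from each other by -0.05 (SE 0.21, adjusted p = 0.971).

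Inhbb (chromosome 1, 119415465 to 119422248) stood at 1.76, 0.823 and 0.844 CPM in HET. It stood at 6.61, 4.46, 4.76 and 4.19 CPM in KO PBS and at 5.30, 4.2, 6.28 and 2.35 CPM in KO antimiR-21. KO antimiR-21 replicate 4 was the lowest knockout and HET replicate 1 the highest heterozygote, and the groups still did not overlap. The difference was 1.89 (SE 0.25), or 3.71-fold (edgeR, adjusted p = 0.0224). It was 2.08 in KO PBS (adjusted p = 0.0216) and 1.70 in KO antimiR-21 (adjusted p = 0.144). Inhbb is a member of the list of TGF-beta and EGFR signalling, in which 19 of 25 tested loci had a positive difference. The median of the list was 0.07, and 4 loci were higher at an unadjusted p under 0.05, against 4.51% of all loci.

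Cdkn1c (chromosome 7, 143458339 to 143461050) was the most abundant of the 4, with 531.5 counts or more in every library. Its level was 37.5, 29.1 and 23.6 CPM in HET. In KO PBS it was 63.9, 62.8, 43.4 and 45.3 CPM, and in KO antimiR-21 it was 69.9, 65.3, 50.8 and 54.8 CPM. The lowest knockout, KO PBS replicate 3, was above the highest heterozygote. The difference was 0.81 (SE 0.11), or 1.75-fold (edgeR, adjusted p = 0.0316), with 0.77 in KO PBS (adjusted p = 0.0749) and 0.85 in KO antimiR-21 (adjusted p = 0.0811), so neither group passed alone. The call was lost in 14 of 26 alternatives, among them the fit without the Y-linked term (0.92, adjusted p = 0.276) and those without any 1 of the HET libraries (adjusted p from 0.151 to 0.361). When only loci with a mean of at least 5 CPM were tested, the difference was 0.83 and the adjusted p 0.169, and the other 3 genes were not tested.

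**Figure D2:**
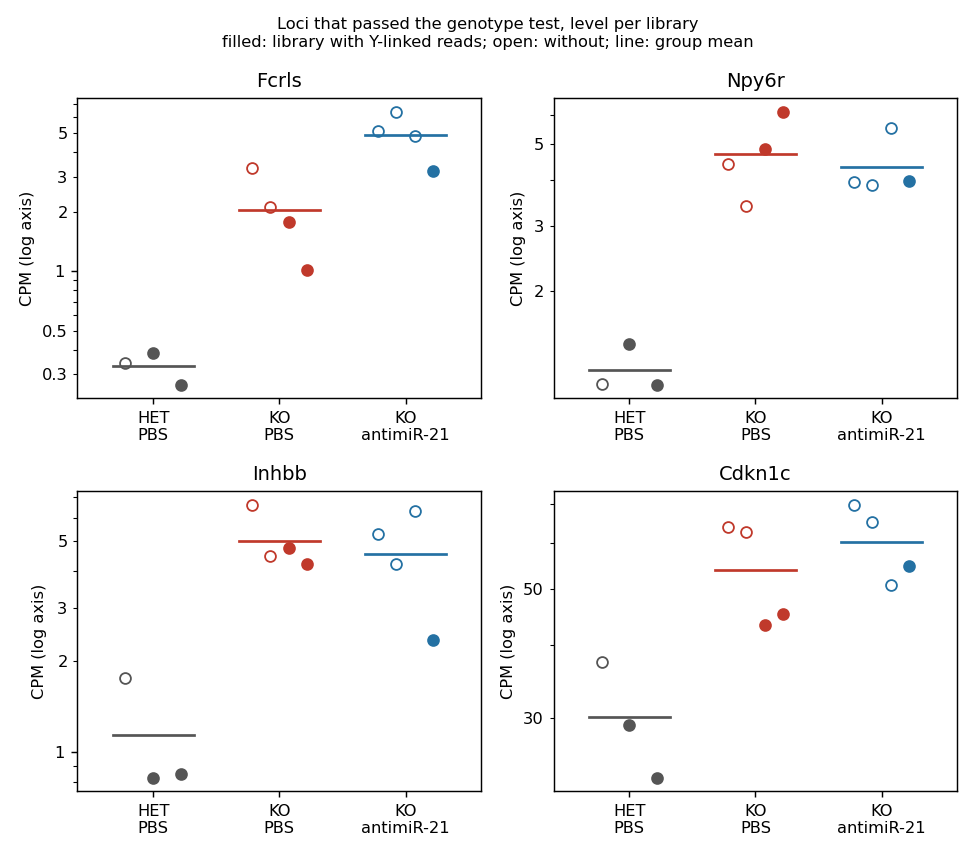
Levels in CPM on a log axis for the 4 genes that passed the genotype test, 1 point per library by group, filled where the library held Y-linked reads and open where it did not, with the group mean as a line. All 8 KO points lie above all 3 HET points in each panel, and Fcrls is the gene whose KO antimiR-21 mean is above its KO PBS mean by the widest margin.

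Cdkn1c belongs to the podocyte list, so its neighbours were read beside it. Of 23 tested podocyte loci, 17 had a positive and 6 a negative difference, with a median of 0.09, 0.12 in KO PBS and 0.13 in KO antimiR-21. Before adjustment 8 were higher and 1 lower at p under 0.05, and in 3 all knockouts lay above all heterozygotes. Over all loci these shares were 4.51%, 2.85% and 1.23%. The defining podocyte markers overlapped between genotypes: Podxl, the surface sialomucin podocalyxin, ran from 278 to 363 CPM in HET and from 292 to 468 CPM in KO, and Wt1, a transcription factor of podocytes, from 11 to 14.7 and from 8.80 to 18.7 CPM. The summed level of the 5 tested podocyte markers was 499 to 628 CPM in HET and 516 to 809 CPM in KO. Its part in the Cdkn1c result was not tested.

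Socs3 and Acpp came next by p among higher loci with a mean of at least 2 CPM in the higher genotype, and neither passed. Socs3, a feedback inhibitor of cytokine signalling through STAT3, had 3.09, 2.25 and 1.47 CPM in HET. It had 20.9, 8.27, 7.40 and 9.78 CPM in KO PBS and 9.95, 6.30, 11.1 and 6.64 CPM in KO antimiR-21. No knockout fell within the HET range. The difference of 1.93 (SE 0.31) did not pass (edgeR, adjusted p = 0.163), but did with DESeq2 (adjusted p = 5.43e-08), on the deposited log2 matrix (limma, adjusted p = 0.0442) and without KO PBS replicate 1 (edgeR, adjusted p = 0.0233) or 2 (0.0186). Osmr was named from the list of chemokines, cytokines and NF-kB targets and not by rank. It encodes a receptor subunit for oncostatin M, which signals through STAT3, and had 13.0, 6.92 and 5.95 CPM in HET. It had 27.3, 14.5, 16.7 and 21.3 CPM in KO PBS and 22.1, 17.3, 31.0 and 14.5 CPM in KO antimiR-21, a difference of 1.15 (SE 0.26, adjusted p = 0.22). Acpp, an acid phosphatase, was at 16.5 to 18.3 CPM in HET and 19.6 to 28.5 CPM in KO, a difference of 0.46 (SE 0.08, adjusted p = 0.186). DESeq2 called Acpp and Osmr as well, and from the lists below Cd44, Mgp, Fbln1, Vim, Cd52, Rac2, Ctss, Egr1 and Egr2, with adjusted p from 8.66e-08 to 0.00561.

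Tubular injury genes, those that stressed or regenerating tubule cells turn on, lay higher in both knockout groups. Of 38 tested loci on the list, 35 had a positive difference, 19 were higher and 0 lower at an unadjusted p under 0.05, against 4.51% and 2.85% of all loci, and 10 did not overlap between genotypes, against 1.23%. The median was 0.44, with 0.51 in KO PBS and 0.36 in KO antimiR-21, and 0 passed the adjusted threshold. Lcn2, the secreted siderophore-binding protein also known as NGAL, had 5.24, 3.95 and 2.27 CPM in HET. It had 106, 21.1, 90.8 and 39.0 CPM in KO PBS and 52.7, 24.3, 56.6 and 52.7 CPM in KO antimiR-21. Every knockout was far above the highest heterozygote, and the knockouts themselves spread from 21.1 to 106 CPM. The difference was 3.82 (SE 0.68, adjusted p = 0.186 with edgeR and 3.72e-08 with DESeq2). Cd44, a hyaluronan receptor of injured epithelium and leukocytes, had 3.35, 2.58 and 2.76 CPM in HET, and 6.52 to 17.2 CPM in KO. Its KO PBS replicate 1 value of 17.2 CPM stood apart from the other 7 knockouts, the highest of which had 8.51 CPM. The difference was 1.38 (SE 0.27, adjusted p = 0.186), and without that library it was 1.27 (adjusted p = 0.0148).

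The score of the injury list, the mean log2 level of its members minus the HET mean, was -0.10 to 0.15 in HET and 0.51 to 1.44 in KO, without overlap. The summed level of its members did overlap, at 2342 to 3960 CPM in HET and 3434 to 9840 CPM in KO. KO PBS replicate 1 had the highest score, and the other 7 knockouts had at most 0.74. This library was also the highest of all in 11 of 35 lists, and HET replicate 1, the only heterozygote without Y-linked reads, was the highest heterozygote in 19 of 35.

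**Figure D3:**
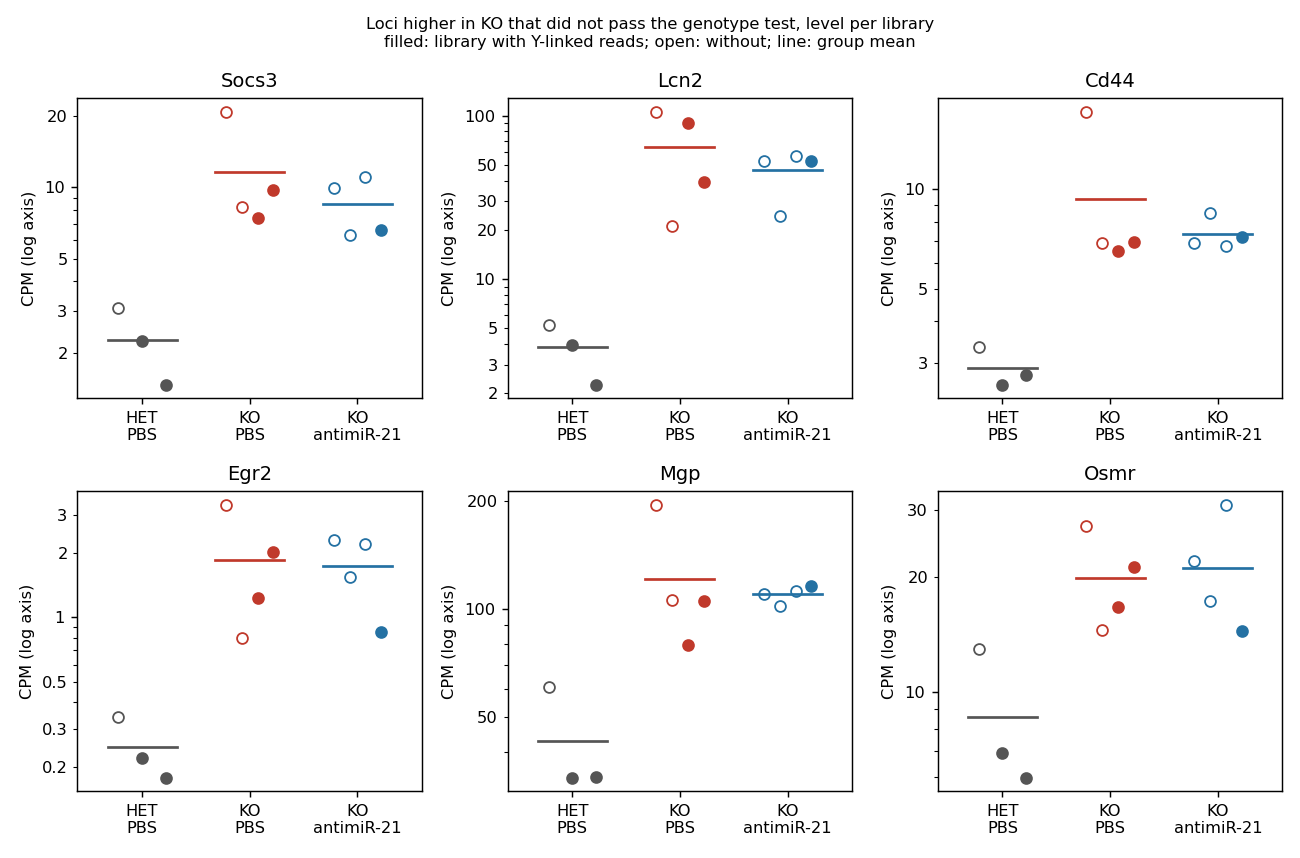
Levels in CPM on a log axis per library for Socs3, Lcn2, Cd44, Egr2, Mgp and Osmr, genes that were higher in KO but did not pass the adjusted threshold, with symbols as in the plot of the 4 called genes. All 8 KO points lie above all 3 HET points in each panel, and KO PBS replicate 1, the first open point of its group, is the highest knockout for each gene except Osmr.

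Fibrosis genes shared the direction. All 38 tested loci of the list of interstitial collagens and fibrosis had a positive difference, 20 were higher at an unadjusted p under 0.05 (4.51% of all loci), 6 did not overlap (1.23% of all loci) and 0 passed the adjusted threshold. The median was 0.53, with 0.67 in KO PBS and 0.38 in KO antimiR-21. Mgp, matrix Gla protein, an inhibitor of calcification, had 60.5, 33.8 and 33.9 CPM in HET. It had 195, 106, 79.6 and 106 CPM in KO PBS and 110, 102, 113 and 116 CPM in KO antimiR-21. Apart from KO PBS replicates 1 and 3, the knockouts lay within a narrow band. The difference was 1.34 (SE 0.23, adjusted p = 0.186), and without KO PBS replicate 1 it was 1.25 (adjusted p = 0.0292). Fbln1, the matrix protein fibulin-1, had 6.98 to 11.7 CPM in HET and 10.2 to 23.1 CPM in KO, so the genotypes overlapped, with a difference of 0.88 (SE 0.17, adjusted p = 0.186). Scores of the list overlapped too, at -0.37 to 0.47 in HET and 0.34 to 1.36 in KO, because HET replicate 1 lay above 2 knockouts.

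Genes of myofibroblasts and pericytes, the contractile cells that deposit matrix, had 15 positive and 2 negative differences among 17 tested loci and a median of 0.28. Vim, the intermediate filament vimentin, had 41.7 to 64.0 CPM in HET and 65.4 to 128 CPM in KO, a difference of 0.69 (SE 0.15, adjusted p = 0.22). The 4 fibroblast markers summed to 144 to 262 CPM in HET and 225 to 414 CPM in KO.

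Markers of tissue next to the kidney moved with single knockouts. The adipocyte markers Adipoq, Cidec and Plin1 summed to 0.172 to 0.576 CPM in HET and 0.0491 to 13.3 CPM in KO, with the highest scores in KO PBS replicate 4 (3.13) and KO antimiR-21 replicates 1 (4.57) and 2 (2.69). Markers of the pelvis urothelium summed to 4.44 to 9.91 CPM in HET and 7.81 to 30.2 CPM in KO. Adrenal Cyp11b1 was at 0 in every library. The part of these tissues in the matrix and injury lists was not tested.

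Macrophage and monocyte genes had a median of 0.58, with 0.62 in KO PBS and 0.58 in KO antimiR-21. Of 27 tested loci, 25 had a positive difference, 18 were higher at an unadjusted p under 0.05 and 5 did not overlap, against 4.51% and 1.23% of all loci. Fcrls, described above, is on this list and was its only call. Of the defining markers, Lyz2, lysozyme of myeloid cells, had 11.7 to 28.1 CPM in HET and 28.6 to 75.3 CPM in KO, which do not overlap. C1qb, a subunit of complement C1q made by macrophages, had 9.61 to 16.7 and 13.5 to 30.3 CPM and overlapped. Emr1, the F4/80 antigen, overlapped too, at 5.62 to 12.6 CPM in HET and 7.82 to 22.4 CPM in KO. The locus Csf1r/Hmgxb3, which holds the receptor of macrophage colony-stimulating factor, had 203 to 218 CPM in HET and 173 to 225 CPM in KO, with overlap. Score values were -0.25 to 0.40 in HET and 0.33 to 1.36 in KO.

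Chemokines, cytokines and NF-kB targets counted 24 positive differences among 26 tested loci. Before adjustment 19 were higher and 1 lower at p under 0.05, 11 lay above all heterozygotes, and the median was 0.45. Over all loci these shares were 4.51%, 2.85% and 1.23%. Non-overlapping chemokines such as Ccl7 and Cxcl5 had means of only 0.076 and 0.048 CPM in HET. Loci that low can pass the filter on low counts through the KO libraries alone, so these counts lean toward higher. The scores of this list did not overlap between genotypes, at -0.12 to 0.09 in HET and 0.61 to 1.51 in KO. Complement genes had 14 positive differences among 15 and a median of 0.57. At an unadjusted p under 0.05, 11 of them were higher, against 4.51% of all loci. C3ar1, the receptor of the C3a fragment on myeloid cells, had 3.61, 2.11 and 1.33 CPM in HET, 2.16 to 4.68 CPM in KO PBS and 5.60 to 7.55 CPM in KO antimiR-21, a difference of 0.92 (adjusted p = 0.389).

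For the other immune lists, leaving out 1 library moved the medians by over 1.5 times. Interferon response genes had a median of 0.14, with 1 of 25 higher at an unadjusted p under 0.05, and antigen presentation genes 0.24, with 2 of 15. Lymphocyte genes had a median of 0.42 with 6 of 16 higher and 1 lower at that threshold. Of all loci 4.51% were higher and 2.85% lower there, and the 1 of 25 interferon loci is close to that share. Without HET replicate 1 these medians were 0.28 for interferon response, 0.53 for antigen presentation and 0.72 for lymphocyte genes. Without HET replicate 3 the last 2 were 0.11 and 0.25, and without KO PBS replicate 4 that of antigen presentation was 0.06. The lymphocyte list's members with the smallest p, Cd52, a surface glycoprotein of leukocytes (1.98 to 2.96 CPM in HET, 3.08 to 7.34 CPM in KO), and Rac2, a GTPase of blood cells (2.69 to 5.32 and 4.67 to 10.7 CPM), are also made by myeloid cells. T cell markers were low, with Cd3e at 0.13 to 0.79 CPM in HET and 0.20 to 1.01 CPM in KO. Cd8a ran from 1.48 to 2.79 CPM in HET and from 1.065 to 2.43 CPM in KO. Of the 3 T cell markers tested, 1 had a positive and 2 a negative difference, with a median of -0.12. At an unadjusted p under 0.05, 1 of them was lower, against 2.85% of all loci. Neutrophil markers S100a8, S100a9 and Ngp reached at most 0.422 CPM in any library.

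Immediate early genes, which serum and growth factors induce within minutes, had 23 positive differences among 25 loci and a median of 0.31. At an unadjusted p under 0.05, 11 of them were higher, against 4.51% of all loci. Egr2, a zinc-finger transcription factor, had 0.343, 0.220 and 0.178 CPM in HET. It had 3.35, 0.802, 1.23 and 2.02 CPM in KO PBS and 2.30, 1.55, 2.21 and 0.856 CPM in KO antimiR-21. Its lowest knockout was above its highest heterozygote, with a difference of 2.63 (SE 0.49, adjusted p = 0.186, or 0.0084 without KO PBS replicate 2). At its HET level, Egr2 can also have passed the filter on low counts through the KO libraries alone. Egr1, a related factor, had 4.50 to 7.21 CPM in HET and 9.10 to 20.3 CPM in KO, a difference of 1.06 (SE 0.23, adjusted p = 0.209).

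**Figure D4:**
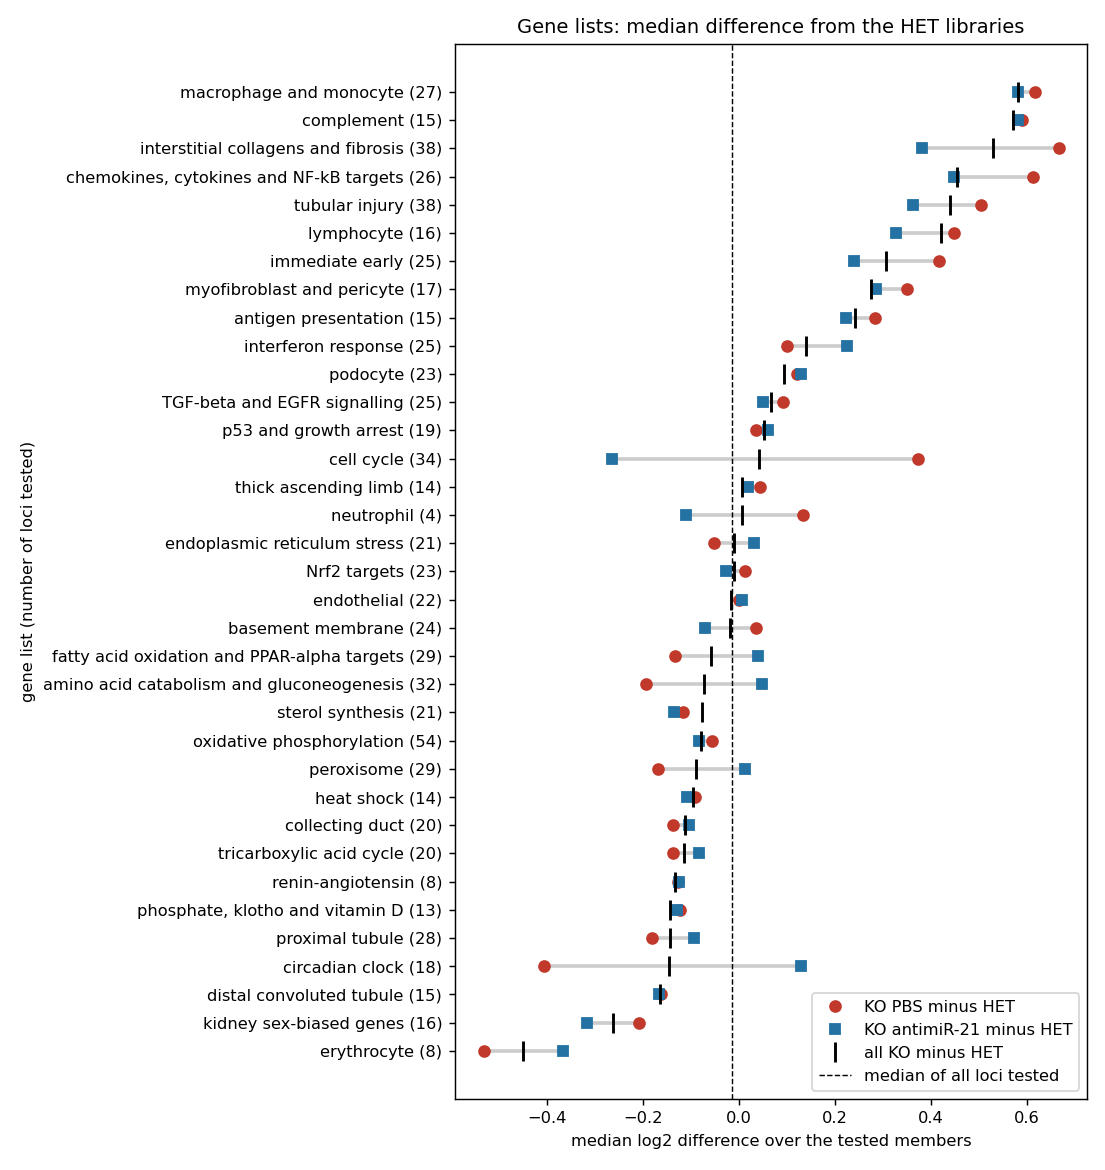
Median log2 difference from the HET libraries over the tested members of each gene list, with circles for KO PBS, squares for KO antimiR-21, black ticks for all KO and a dashed line at the median of all 14380 loci (-0.01). Both knockout groups lie to the right for macrophage, complement, fibrosis, chemokine and injury lists and to the left for the erythrocyte list, while the clock and cell cycle lists lie on opposite sides in the 2 groups.

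A wider view of the non-overlapping loci was taken after their values were seen. Among those that differed by more than 1 on the log2 scale with at least 5 CPM in the higher genotype, 25 were higher in KO and 1, the beta-globin Hbb-b2, was lower, and 19 of the 26 had their highest knockout value in KO PBS replicate 1. A few are named here. Timp1, an inhibitor of metalloproteinases, ran from 0.275 to 0.901 CPM in HET and from 2.76 to 15.3 CPM in KO (2.85, adjusted p = 0.186). Smoc2, a secreted calcium-binding matrix protein, ran from 8.45 to 16.2 CPM and from 20 to 56 CPM (1.23, adjusted p = 0.306). Mmp12, the macrophage elastase, ran from 1.63 to 2.04 CPM and from 3.35 to 10.7 CPM (1.44, adjusted p = 0.281). The endothelial and tubular adhesion molecule Vcam1 ran from 10.2 to 23.9 CPM and from 25.6 to 85.4 CPM (1.08, adjusted p = 0.358). Transport genes were among them: the calcium channel Trpv6, with 1.33 to 2.32 CPM in HET and 3.01 to 8.44 CPM in KO, and the phosphate transporter Slc34a2, with 8.62 to 11 and 13.0 to 41.6 CPM.

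On the lower side, no locus passed, and the named loci with the smallest p differed by -0.26 to -1.29. The joint locus 2310081J21Rik/Gm906 had 10.3, 12.5 and 10.2 CPM in HET. It had 5.42, 6.66, 7.31 and 6.37 CPM in KO PBS and 5.25, 6.30, 8.05 and 6.32 CPM in KO antimiR-21, all below every heterozygote. The difference was -0.74 (SE 0.15), with adjusted p = 0.186 in edgeR and 0.00177 in DESeq2. Sec23b, a coat component of vesicles that leave the endoplasmic reticulum, had 178, 262 and 283 CPM in HET and 144 to 234 CPM in KO, a difference of -0.32 (adjusted p = 0.186). Top1, DNA topoisomerase I, had 112 to 131 CPM in HET and 93.8 to 111 CPM in KO, a difference of -0.26 (adjusted p = 0.214). Atp12a, the non-gastric proton-potassium pump, had 7.04, 2.80 and 6.84 CPM in HET and 1.53 to 5.51 CPM in KO, with overlap, and differed by -1.29 (adjusted p = 0.214). The unnamed locus XLOC_001527 had 2.02 to 3.07 CPM in HET and 0.785 to 2.11 CPM in KO, a difference of -0.79 (adjusted p = 0.214). Sec23b, Top1 and Atp12a were called by DESeq2, with adjusted p of 0.00177, 0.0163 and 0.0115.

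Erythrocyte genes, transcripts of red cells and their precursors, formed the list with the lowest median, -0.45, with -0.53 in KO PBS and -0.37 in KO antimiR-21. Of 8 tested loci, 7 had a negative difference, 5 were lower at an unadjusted p under 0.05 and 4 lay entirely below the heterozygotes, against 2.85% and 0.369% of all loci. Hba-a1, an alpha-globin, had 1.72, 1.87 and 1.24 CPM in HET. It had 0.230, 0.601, 0.617 and 0.272 CPM in KO PBS and 0.929, 0.332, 0.785 and 0.749 CPM in KO antimiR-21. No knockout reached the lowest heterozygote, and the difference was -1.56 (SE 0.33, adjusted p = 0.186). The joint locus Alas2/Tmem29 holds Alas2, the erythroid enzyme that starts haem synthesis. It had 29.4 to 35.2 CPM in HET and 18.3 to 28.8 CPM in KO, a difference of -0.43 (adjusted p = 0.186). DESeq2 called Hba-a1 (adjusted p = 0.0333) and this locus (0.00684). Beta-s, the adult beta-globin, had 129 to 214 CPM in HET and 39.8 to 155 CPM in KO, and Hbb-b2 ran from 16.3 to 24.5 CPM and from 3.49 to 14.9 CPM. Globin genes have near-identical copies, so their reads may be divided between copies. The list scores did not overlap, at -0.15 to 0.18 in HET and -0.95 to -0.24 in KO. The summed level of the list did overlap, at 284 to 413.5 CPM in HET and 169.7 to 320.4 CPM in KO. How much blood each kidney held was not measured.

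**Figure D5:**
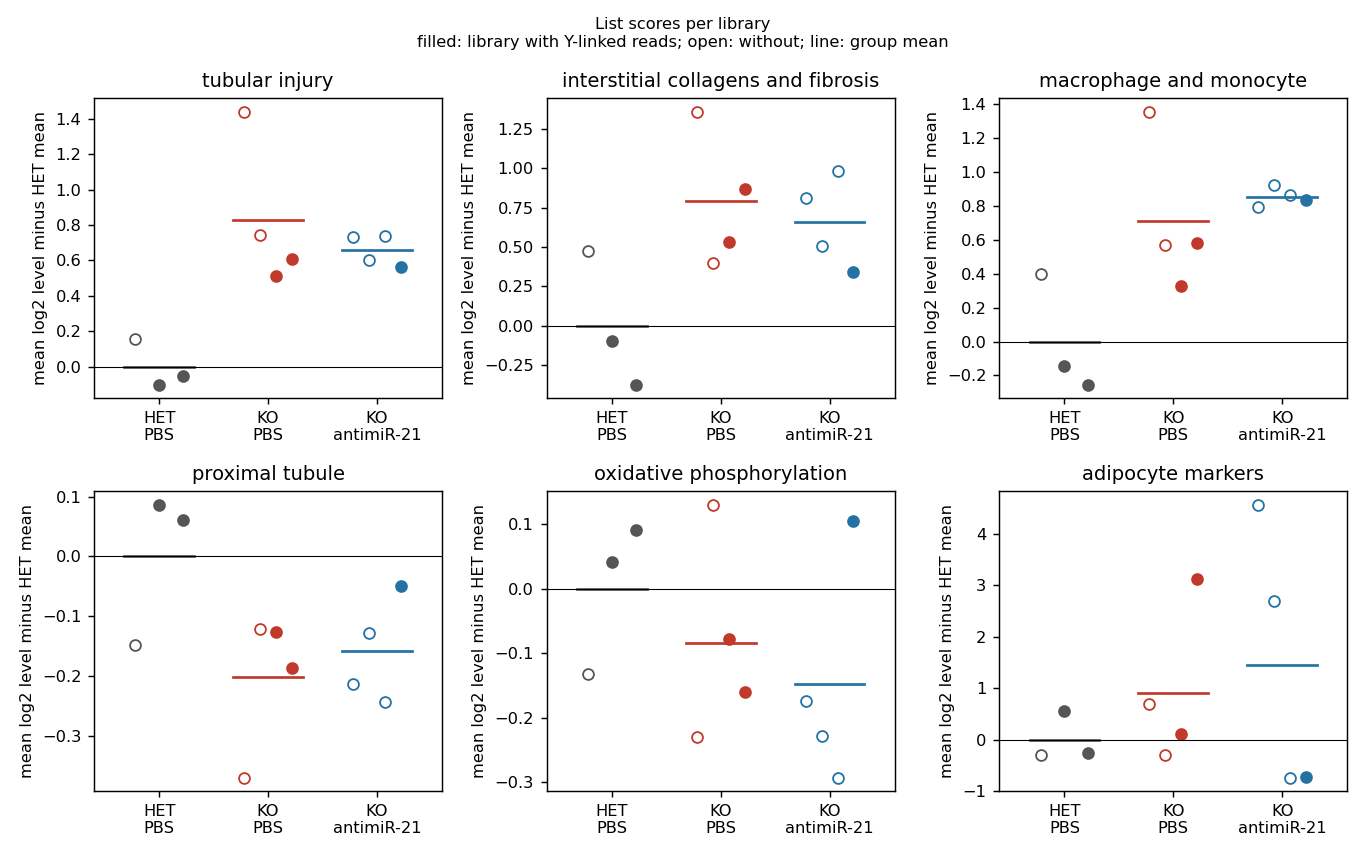
Score of 5 gene lists and of the adipocyte markers in each library, as the mean log2 level of the members minus the HET mean, with symbols as in the plot of the 4 called genes. Injury scores do not overlap between genotypes, fibrosis and macrophage scores overlap through HET replicate 1, proximal tubule and oxidative phosphorylation scores overlap, and adipocyte markers are high in 3 knockouts.

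Genes of the proximal tubule, the segment that reclaims most filtered solutes, had 26 negative and 2 positive differences among 28 loci and a median of -0.14, with -0.18 in KO PBS and -0.09 in KO antimiR-21. Before adjustment 5 were lower and 0 higher at p under 0.05, against 2.85% and 4.51% of all loci. The joint locus BC017158/Slc5a2 holds Slc5a2, the main glucose transporter of the early proximal tubule. It had 897, 916 and 1020 CPM in HET and 712 to 886 CPM in KO, below the heterozygotes throughout, with a difference of -0.29 (adjusted p = 0.456). Ano3/Slc5a12, which holds the lactate transporter Slc5a12, overlapped, at 1110 to 1290 CPM in HET and 835 to 1397 CPM in KO, with a difference of -0.25 (adjusted p = 0.544).

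The distal convoluted tubule list had 14 negative differences among 15 loci and a median of -0.16. At an unadjusted p under 0.05, 5 of them were lower, against 2.85% of all loci. Kl, which encodes klotho, the co-receptor of the phosphate-regulating hormone FGF23, had 778, 898 and 1080 CPM in HET and 578 to 791 CPM in KO, so that 1 knockout lay above the lowest heterozygote. Its difference was -0.32 (adjusted p = 0.436). The vitamin D receptor Vdr had 351 to 386 CPM in HET and 268 to 333 CPM in KO, without overlap, a difference of -0.27 (adjusted p = 0.34 in edgeR, 0.0428 in DESeq2). The list of phosphate, klotho and vitamin D genes had 10 negative differences among 13 and a median of -0.14. The collecting duct list had a median of -0.11 and the thick ascending limb list one of 0.01, with 7 loci on each side of 0.

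Genes of energy metabolism differed by little in size and mostly in 1 direction. All 20 tested loci of the tricarboxylic acid cycle and 53 of 54 of oxidative phosphorylation had a negative difference, with medians of -0.11 and -0.08. At an unadjusted p under 0.05, 1 and 0 of them were lower, against 2.85% of all loci. A negative difference was also found in 7829 of all 14380 loci. Genes of a list share libraries, so their signs are not independent of each other. Their scores overlapped between genotypes, from -0.16 to 0.09 in HET and from -0.34 to 0.06 in KO for the cycle. Peroxisome genes had 25 negative differences among 29 and a median of -0.09, which was -0.17 in KO PBS and 0.01 in KO antimiR-21. Fatty acid oxidation genes had medians of -0.13 and 0.04 in those groups, and amino acid catabolism genes -0.19 and 0.05. The pooled medians of these 3 lists, -0.09, -0.06 and -0.07, therefore stand between groups that differ in sign.

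The same held for 2 lists more strongly. Circadian clock genes had a median of -0.40 in KO PBS and 0.13 in KO antimiR-21, and cell cycle genes 0.37 and -0.26. Between the knockout groups, 20 of 34 cell cycle loci were lower under antimiR-21 at an unadjusted p under 0.05, while 697 of all 14380 loci were (4.85%). No locus passed the adjusted threshold there (edgeR, 0%, with 1593 in either direction before adjustment). A median pooled over both knockout groups (-0.14 for the clock, 0.04 for the cell cycle) describes neither of them. It also moved when 1 library was left out. The cell cycle median was 0.33 without HET replicate 3, 0.12 without KO PBS replicate 4 and -0.06 without KO antimiR-21 replicate 4, and the clock median was -0.02 without HET replicate 2 and -0.28 without HET replicate 3.

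The lists described next had medians from -0.26 to 0.05. Basement membrane genes had a median of -0.02, and the abundant chains Col4a1/Col4a2 had a difference of -0.02 (adjusted p = 0.997). Endothelial genes had -0.02, Nrf2 targets -0.01, endoplasmic reticulum stress genes -0.01, p53 and growth arrest genes 0.05, neutrophil genes 0.01 over 4 loci, heat shock genes -0.10, sterol synthesis genes -0.08 with 4 of 21 lower before adjustment, and renin-angiotensin genes -0.13 with 2 of 8. Of all loci, 2.85% were lower at an unadjusted p under 0.05. Kidney genes known to differ between the sexes had a median of -0.26 with the Y-linked term in the fit. Slc22a30, a transporter of that list, had 486 to 500 CPM in the 2 HET libraries with Y-linked reads and 22.7 CPM in the other. Its level in KO was 328 to 497 CPM in the 3 libraries with such reads and 6.83 to 16.2 CPM in the 5 without.

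The genotype difference was not found to depend on Y-linked status. No locus passed the test of an interaction (edgeR, 0 called or 0%, 259 or 1.8% before adjustment at p under 0.05, smallest adjusted p = 0.9998), with only 1 HET library without Y-linked reads to estimate it. The difference of Fcrls was 2.57 among libraries with Y-linked reads and 3.64 among those without, that of Npy6r 1.99 and 1.92, that of Inhbb 2.21 and 1.61, and that of Cdkn1c 0.89 and 0.74. Neither subset gave a call at the adjusted threshold in edgeR, and 732 and 200 loci were higher at an unadjusted p under 0.05.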

How the data were processed

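Whole-kidney RNA-seq libraries (TruSeq RNA v2, which does not mark strand) were analysed as deposited. For each library the authors deposited estimated counts by gene symbol, or by locus where unnamed, in steps of 0.5, per the file headers and values. A series-wide matrix of log2 values, also deposited, equals log2 CPM up to a constant per library and served only as an alternative. Per the submitters' processing notes, build mm10 was used, with STAR, SAMtools, FastQC, limma and HTSeq 0.5.4p5. How reads were counted is not given in the sources used here.

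Of 24914 rows per file, 1513 pairs of names with identical counts in all libraries and a total of at least 50 were joined and are written with a slash, since their reads cannot be assigned to either gene. Joined counts were rounded and entered edgeR 4.0.16 under R 4.3.3 (TMM, filterByExpr over 3 groups, glmQLFit robust, two-sided, Benjamini-Hochberg at 0.05 over 14380 loci). The contrast was the mean of both knockout groups minus HET, with Y-linked status (Ddx3y above 5 CPM) as a term. The SE is the log2 difference divided by the square root of F. The biological coefficient of variation was 0.14. The scripts were tested on simulated data. List scores use log2 of CPM plus 0.1. Coordinates are from GENCODE vM21. Alternatives, given at the end, include DESeq2 1.42.0 and limma 3.58.1.

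Of 858 genes on the 35 lists, 753 were tested, 7 names of all lists through older symbols, and the rest are not analysed here. Named genes are those called, filled up to 6 per direction by smallest p at 2 CPM or more in the higher genotype, called list members, the 2 list members with the smallest p of other lists, and Col4a3, Col4a4, Col4a5 and Ddx3y. Genes named from outside this rule are markers or were picked after their values were seen. Comparison, members and lists were chosen with earlier results of these data known. Columns of other samples numbered 0. Results of some genes are not reported here.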

Additional observations from a re-analysis of the deposited data

Results flagged for a closer look

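In groups of 4 libraries, a value was singled out where its gap to the nearest other library took up an unusual part of the group's range. Chance does this in about 1 in 20 groups, and 14 of 148 groups of named loci were singled out, 6 of them by KO antimiR-21 replicate 4, the only library of its group with Y-linked reads.

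Among genes higher in KO, Npy6r was at 5.55 CPM in KO antimiR-21 replicate 3 against 3.87 to 3.96 in the others, Cd44 at 17.2 CPM in KO PBS replicate 1 against 6.52 to 6.95, and Lcn2 at 24.3 CPM in KO antimiR-21 replicate 2 against 52.7 to 56.6. In KO PBS, replicate 2 had high values of BC017158/Slc5a2 (868 CPM against 754 to 772) and Ddo (57.8 against 49.0 to 50.4) and a low value of Col4a5 (163 against 207 to 215). Replicate 3 had a low value of Hsd11b2 (123 CPM against 150 to 152) and replicate 1 of Coq10a/Cs (408 against 442 to 444). KO antimiR-21 replicate 4 was the highest of its group for Coq10a/Cs (455 CPM against 389 to 394), Cycs (153 against 72.2 to 81.3), A330041J22Rik/Me1 (519 against 246 to 262), Gclc (287 against 191 to 206), Slc22a30 (333 against 6.83 to 11.2) and Slc22a28 (210 against 9.67 to 21.7).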

How the results depend on the processing

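With 3 HET libraries, only 1 of them without Y-linked reads, the number of calls moved with most choices. Against 4 higher and 0 lower, DESeq2 gave 92 and 17, the fit without the Y-linked term 2 higher, and a mean of at least 5 CPM 0 (408 higher and 245 lower at an unadjusted p under 0.05). Libraries with Y-linked reads alone and libraries without them alone gave 0 each in edgeR. An alternative added after seeing the data, the clock index in place of the Y-linked term, gave 0 (790 higher and 380 lower unadjusted). Leaving out 1 library gave from 0 to 11 higher calls and 0 lower. These were 0 without HET replicate 1 or 3, 1 without HET replicate 2 (Fcrls), 11 without KO PBS replicate 1, 7 without KO PBS replicate 2, and 2 without KO PBS replicate 3 or 4 or KO antimiR-21 replicate 1. The cause was not tested. Higher calls numbered 3 with both knockout groups as 1, where Fcrls was lost, and 3 with the clock index added, where Inhbb was lost. They numbered 4 with limma-voom, 6 on the deposited matrix, 4 with DESeq2 size factors, 4 without a filter and 4 on rows as deposited.

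The replicate block gave 3 higher and 0 lower calls (Cdkn1c and Fcrls among them). Same-numbered libraries did not deviate together throughout, with correlations from -0.44 to 0.63, so the numbers were not taken to pair them.

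No called value changed sign in any alternative, but each call was lost in some. Fcrls was not called in 6 of 25 alternatives, Npy6r in 7 of 25, Inhbb in 12 of 25 and Cdkn1c in 14 of 26. Over these alternatives, Fcrls ranged from 2.57 to 3.64, Npy6r from 1.79 to 2.07, Inhbb from 1.61 to 2.21 and Cdkn1c from 0.73 to 1.04. Of 490 list medians recomputed, 3 moved by more than their spread: lymphocyte to 0.72 without HET replicate 1, and endothelial to 0.12 without HET replicate 1 and -0.13 without HET replicate 3.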
